A study of Homo sapiens with 9 samples.

Results

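The Kruppel-like factor (KLF) genes KLF3, KLF4, KLF5, KLF6, KLF9, KLF10, KLF11, KLF12, KLF13 and KLF16 were described in SKBR3, an established breast cancer line with extra copies of the HER2 gene ERBB2. They are 10 of the 20812 genes of the deposited table, which holds 17 KLF genes, and were picked by symbol with earlier results of the data known. SKBR3 cells were transfected for 48 h with 10 nM siRNA and Lipofectamine RNAiMAX. Of the 9 libraries, 3 had received a non-targeting control siRNA (ON-TARGETplus, Horizon Discovery), 3 PVRL4 siRNA 1 and 3 PVRL4 siRNA 2, the PVRL4 siRNAs coming from Integrated DNA Technologies. Control and PVRL4 siRNAs therefore differed in supplier as well as in target, and all groups were siRNA-transfected cells of a single line. Levels are in RPM, the reads of a gene scaled to the total reads of its library, and a log2 change is a difference of log2(RPM + 1). The symbols were given without the values that led to them, and KLF7, at a mean of 25.9 RPM, was not among them. The adjusted p of a gene below therefore states its place among the 11158 genes tested, and is not independent evidence for a gene that may have been chosen for it.

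KLF proteins are transcription factors that bind GC boxes and CACCC boxes through 3 zinc fingers at their carboxyl end, a fold they share with the SP factors. Textbooks sort them by what they recruit. KLF3, KLF8 and KLF12 bind the corepressor CtBP, a group with KLF4, KLF5 and KLF6 recruits acetyltransferases and mostly activates, and KLF9, KLF10, KLF11, KLF13 and KLF16 bind the SIN3A corepressor. In epithelia KLF5 is linked to proliferation and KLF4 to cell cycle arrest and differentiation, while KLF10 and KLF11 are known as early targets of TGF-beta.

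Bases ahead of the transcription start are shown, as context for what lies there, for KLF11, which differed most between the groups, and for KLF4, KLF5 and KLF6. The last 3 had the largest coefficients of variation within a group, at 32.7%, 38.7% and 25.2% with siRNA 1. They come from the RefSeq promoter table in build GRCh38.p14, which held 8 of the 10 genes (all but KLF3 and KLF10) with 13 start windows. Each is printed 5′ to 3′ on the strand of its gene and ends at the base before the start or before an annotated exon. Capitals mark 3 motifs, searched on both strands. They are the GC box with the letters GGGCGG, the CACCC box, whose letters are its name, and the cAMP response element (CRE) with the letters TGACGTCA. The KLF11 stretch is chr2:10043971-10044220 on the plus strand, the KLF4 stretch chr9:107489770-107490019 on the minus strand, the KLF6 stretch chr10:3785282-3785459 on the minus strand and the KLF5 stretch chr13:73054726-73054975 on the plus strand.
KLF11: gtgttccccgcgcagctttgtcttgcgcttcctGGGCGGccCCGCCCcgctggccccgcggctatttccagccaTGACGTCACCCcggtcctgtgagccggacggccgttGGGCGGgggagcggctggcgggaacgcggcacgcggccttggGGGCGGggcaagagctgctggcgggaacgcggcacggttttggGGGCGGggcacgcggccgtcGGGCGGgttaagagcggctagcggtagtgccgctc
KLF4: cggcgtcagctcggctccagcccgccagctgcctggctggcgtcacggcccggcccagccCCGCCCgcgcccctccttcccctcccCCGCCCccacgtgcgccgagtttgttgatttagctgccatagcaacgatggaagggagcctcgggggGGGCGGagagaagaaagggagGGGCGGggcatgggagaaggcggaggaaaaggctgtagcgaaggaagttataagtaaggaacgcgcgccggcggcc
KLF6: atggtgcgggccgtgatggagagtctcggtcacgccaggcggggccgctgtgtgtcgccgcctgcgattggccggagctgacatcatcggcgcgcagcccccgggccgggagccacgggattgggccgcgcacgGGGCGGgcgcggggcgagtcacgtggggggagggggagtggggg
KLF5: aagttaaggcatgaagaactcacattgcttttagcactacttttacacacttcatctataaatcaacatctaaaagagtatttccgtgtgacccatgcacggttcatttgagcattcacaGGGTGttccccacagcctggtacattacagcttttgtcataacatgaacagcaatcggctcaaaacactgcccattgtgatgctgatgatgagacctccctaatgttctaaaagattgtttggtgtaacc

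The KLF11 stretch of 250 bases was 74.4% G and C and held 6 GC boxes and 1 CRE, whose last bases overlap the only CACCC box. Of the 35116 promoters of the table, 42.6% held a GC box within the 250 bases before the start, 54.7% a CACCC box and 1.65% a CRE. The KLF4 stretch held 4 GC boxes and none of the other motifs. The KLF6 stretch, 178 bases long, held 1 GC box, and 30.9% of promoters held at least 1 over that length. The whole KLF6 window of 250 bases, which reaches into an annotated exon, held 2 GC boxes. The KLF5 stretch was 40.8% G and C, with 1 CACCC box and no GC box. The 250 bases before a second listed start of KLF5, which reach into an annotated exon, were 70.8% G and C. They held 2 GC boxes and 2 CACCC boxes. Those before a second start of KLF11, also in an exon, held 2 GC boxes. Which of the listed starts SKBR3 cells use was not tested. An AP-1 site (TGANTCA), the element of FOS and JUN proteins, was in none of the 4 stretches and in 6.57% of all promoters over 250 bases. In the windows of the other genes with an entry, KLF16 had 7 GC boxes, KLF13 had 3 with 1 CACCC box, and KLF9 had none of these motifs. Of the 4 KLF12 windows, 1 held an AP-1 site, 1 held 4 GC boxes and 5 CACCC boxes, 1 held 5 CACCC boxes and 1 held none of these motifs. Matches describe letters in these windows and say nothing about binding.

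Libraries held 10017130 to 10707777 reads, so 1 read was worth 0.0934 to 0.0998 RPM. PVRL4, the target, was at 9.81 ± 1.89 RPM in control, 5.01 ± 0.866 RPM with siRNA 1 and 2.96 ± 0.411 RPM with siRNA 2 (SD, n = 3 each), with no overlap between control and either siRNA. Its fall passed the test with siRNA 2 (limma, adjusted p = 0.00224). With siRNA 1 it missed the threshold (adjusted p = 0.0601) and passed when the replicate number entered the fit as a block (adjusted p = 0.0132). The cells carried luminal epithelial markers at 6 of 8 genes above 1 RPM (KRT8, KRT18, KRT19, EPCAM, ERBB2 and GATA3), with CDH1 and ESR1 at no more than 0.0667 RPM on average in any group. The summed luminal level was 9868 to 10636 RPM in control, 9701 to 10141 RPM with siRNA 1 and 8334 to 8861 RPM with siRNA 2. All 6 leukocyte markers together stayed at or below 0.485 RPM in every library, and sums of basal, fibroblast and endothelial markers at or below 6.59, 7.66 and 10.3 RPM. Expression of 15 interferon-induced genes, named after values had been seen, set the siRNA 1 libraries apart. Sums were 138, 141 and 143 RPM in control replicates 1, 2 and 3, and 6054, 875 and 2685 RPM with siRNA 1. With siRNA 2 they were 147, 147 and 222 RPM, the first 2 close to control. The part of these genes in the KLF values was not tested. The labels do not say whether replicates were separate cultures, so p-values measure a spread between samples that may be technical.

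KLF11 was lower than control with siRNA 1 and higher than control with siRNA 2, and the PVRL4 siRNAs differed by 1.99-fold. It encodes a SIN3A-binding repressor also known as TIEG2, a TGF-beta inducible early gene linked to growth arrest and to insulin gene control. Control libraries held 75.5, 75.6 and 79.5 RPM. PVRL4 siRNA 1 libraries held 50.3, 51.2 and 52.2 RPM, and siRNA 2 libraries 100.0, 95.5 and 110.1 RPM. All siRNA 1 libraries were below all controls and all siRNA 2 libraries above them, so no library of any group fell within the range of another. Separation in these directions was found in 5.59% of all genes tested for siRNA 1 against control, 4.99% for siRNA 2 against control and 7.04% for siRNA 2 against siRNA 1. Each library held 521 to 1154 KLF11 reads, so counting error is small beside these gaps, although reads without molecular identifiers are not independent molecules. In RNA of whole cultures, fewer cells in a given state and less RNA per cell cannot be told apart.

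Group means of KLF11 were 76.9 ± 2.31 RPM in control, 51.2 ± 0.942 RPM with siRNA 1 and 101.9 ± 7.45 RPM with siRNA 2 (SD, n = 3 each). The coefficient of variation was 3.0%, 1.8% and 7.3%. Relative to control the level was 66.7% with siRNA 1 and 133% with siRNA 2. For siRNA 1 against control the log2 change of KLF11 was -0.58, with a 95% confidence interval of -0.79 to -0.37. Its adjusted p was 0.00954 in limma, at place 47 of the 11158 genes. Over all genes, 0.851% passed in that comparison and 0.215% were lower. Without control replicate 3 the adjusted p was 0.0680, with a log2 change of -0.55. For siRNA 2 against control the log2 change was 0.40 (0.19 to 0.61), which missed the threshold (adjusted p = 0.0962, place 131, 0.681% of genes called). It passed with the replicate number as a block (adjusted p = 0.0141, with 3.41% of genes called) and in DESeq2 (adjusted p = 0.0181), but not in edgeR's quasi-likelihood test without the block (adjusted p = 0.105). Between the PVRL4 siRNAs the log2 change was 0.98 (0.76 to 1.19), with an adjusted p of 0.000214 in limma at place 5 of all genes, where 3.05% were called and 0.592% were higher.

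Among the protein-coding genes of RefSeq (GRCh38.p14), KLF11 lies between GRHL1 and CYS1, with RRM2 next to CYS1. GRHL1, an epithelial grainyhead-like transcription factor, was at 141 ± 4.51 RPM in control, 133 ± 12.6 RPM with siRNA 1 and 90.1 ± 9.86 RPM with siRNA 2 (SD, n = 3 each). Its libraries with siRNA 2 (79.1, 98.1 and 93.1 RPM) were all below those of the other groups. GRHL1 was lower with siRNA 2 than in control (log2 change -0.64, limma adjusted p = 0.0171) where KLF11 was higher. The GRHL1 call was lost in 4 of 9 fits that left out 1 library (control replicates 1, 2 or 3 or siRNA 2 replicate 1), with adjusted p of 0.0665 to 0.0847. It was also lost in limma with no trend in the prior variance (adjusted p = 0.0795). RRM2, a ribonucleotide reductase subunit, had means of 346, 342 and 353 RPM in control, siRNA 1 and siRNA 2 libraries, and CYS1 had at most 4 reads in any library.

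**Figure D1:**
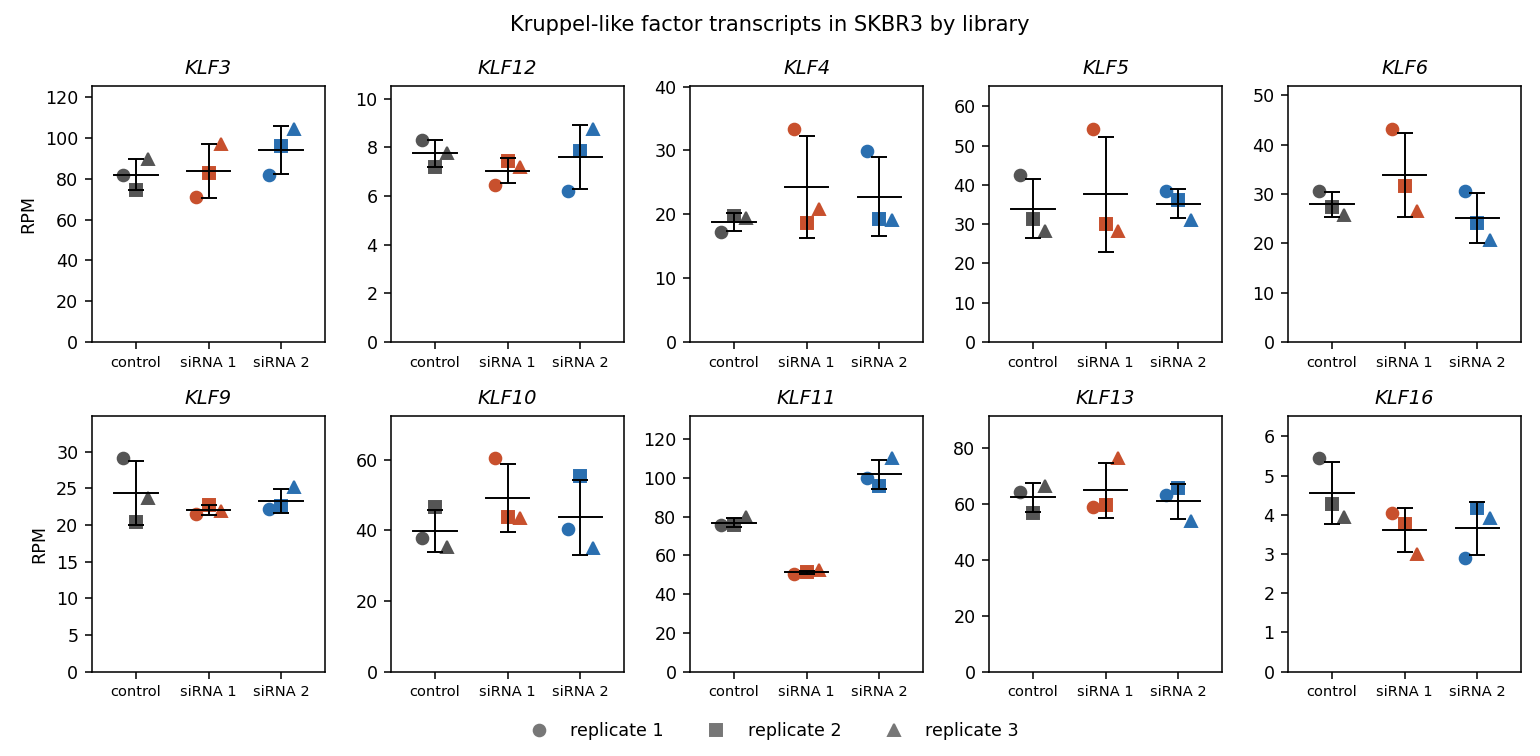
RPM of the 10 KLF genes in each library, with control, PVRL4 siRNA 1 and PVRL4 siRNA 2 groups on the x axis, marker shape giving the replicate number, and black lines giving the mean and SD of 3 libraries. Axes start at 0 and differ between genes. KLF11 is the panel in which the 3 groups do not overlap, at 50.3 to 52.2 RPM with siRNA 1, 75.5 to 79.5 RPM in control and 95.5 to 110.1 RPM with siRNA 2.

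The other genes of the SIN3A-binding group overlapped between all groups. KLF10, the closest relative of KLF11 among them and also TGF-beta inducible, held 37.8, 46.5 and 35.2 RPM in the control libraries, 60.4, 43.7 and 43.3 RPM with siRNA 1 and 40.4, 55.3 and 35.1 RPM with siRNA 2. Its highest libraries were siRNA 1 replicate 1 and siRNA 2 replicate 2. The log2 change of KLF10 was 0.29 with siRNA 1 (95% confidence interval -0.09 to 0.67, limma adjusted p = 0.995) and 0.11 with siRNA 2 (-0.26 to 0.49, adjusted p = 0.917). Without siRNA 1 replicate 1, the library with the highest interferon gene sum, the KLF10 value for siRNA 1 was 0.13. KLF13, described as a regulator of the chemokine gene CCL5 in T cells, held 64.3, 56.7 and 66.3 RPM in the control libraries, 59.1, 59.6 and 76.4 RPM with siRNA 1 and 63.3, 65.6 and 54.0 RPM with siRNA 2. Its log2 changes were 0.05 (-0.22 to 0.32) and -0.04 (-0.31 to 0.24). CCL5 itself was at 0.224 RPM on average in control, under the floor of 3 reads (0.280 to 0.299 RPM), and at 25.9, 3.68 and 7.75 RPM with siRNA 1, in the order of the interferon gene sums.

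KLF9, a glucocorticoid- and thyroid hormone-responsive repressor, held 29.1, 20.4 and 23.7 RPM in the control libraries, 21.4, 22.8 and 21.9 RPM with siRNA 1 and 22.2, 22.6 and 25.2 RPM with siRNA 2. Control replicate 1 was the highest of the 9 libraries and control replicate 2 the lowest. The spread of KLF9 was wider in control (coefficient of variation 18.1%) than with siRNA 1 (3.05%) or siRNA 2 (7.03%), a difference that was not tested. The log2 change of KLF9 was -0.13 with siRNA 1 (-0.43 to 0.18) and -0.05 with siRNA 2 (-0.35 to 0.25). KLF16, described as a regulator of dopamine receptor and metabolic genes, was the lowest of the 10 rows, with 29 to 57 reads a library. It held 5.44, 4.26 and 3.94 RPM in the control libraries, 4.06, 3.78 and 2.99 RPM with siRNA 1 and 2.90, 4.17 and 3.91 RPM with siRNA 2. Means with siRNA 1 and siRNA 2 were 79.3% and 80.4% of control, with log2 changes of -0.27 (-0.69 to 0.15) and -0.25 (-0.67 to 0.17). Both intervals include 0.

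The CtBP-binding genes KLF3 and KLF12 were at very different levels. Each gene is read by an amplicon of its own, so levels of different genes are not numbers of molecules. KLF3, a repressor known from blood cells and fat tissue, had the highest mean of the 10 rows, 86.6 RPM over the 9 libraries. It held 81.7, 74.5 and 89.7 RPM in the control libraries, 71.3, 82.9 and 97.3 RPM with siRNA 1 and 81.7, 95.9 and 104.7 RPM with siRNA 2. Replicate 3 was the highest library in each group. The log2 change of KLF3 was 0.02 with siRNA 1 (-0.26 to 0.31) and 0.19 with siRNA 2 (-0.09 to 0.48, limma adjusted p = 0.733). KLF12, known as a repressor of TFAP2A, held 8.30, 7.20 and 7.79 RPM in the control libraries, 6.47, 7.46 and 7.19 RPM with siRNA 1 and 6.19, 7.85 and 8.78 RPM with siRNA 2. Its log2 changes were -0.12 (-0.48 to 0.23) and -0.04 (-0.39 to 0.32). TFAP2A was at 170 ± 6.60 RPM in control, 169 ± 24.0 RPM with siRNA 1 and 135 ± 8.88 RPM with siRNA 2 (SD, n = 3 each). Its log2 change of -0.33 with siRNA 2 did not pass in limma (adjusted p = 0.306) and passed with the replicate block in limma (adjusted p = 0.0412) but not with the block in edgeR (0.0766) or in DESeq2 (0.239).

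Among the activators, KLF4, KLF5 and KLF6 were not called with either siRNA against control, and their highest values were all in replicate 1 libraries. KLF4, a reprogramming factor that restrains the cell cycle in epithelia, held 17.2, 19.8 and 19.4 RPM in the control libraries, 33.4, 18.7 and 20.8 RPM with siRNA 1 and 29.8, 19.2 and 19.1 RPM with siRNA 2. In 7 libraries KLF4 lay between 17.2 and 20.8 RPM, and replicate 1 of each PVRL4 siRNA stood apart. KLF5, which promotes proliferation in breast and gut epithelium, held 42.5, 31.3 and 28.3 RPM in the control libraries, 54.4, 30.0 and 28.4 RPM with siRNA 1 and 38.4, 36.1 and 31.2 RPM with siRNA 2. Replicate 1 was its highest library in each group. KLF6, a growth suppressor that induces CDKN1A, held 30.6, 27.3 and 25.7 RPM in the control libraries, 43.3, 31.7 and 26.6 RPM with siRNA 1 and 30.5, 24.1 and 20.6 RPM with siRNA 2. In each group KLF6 was highest in replicate 1 and lowest in replicate 3.

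With siRNA 1 the log2 change against control was 0.31 for KLF4 (95% confidence interval -0.14 to 0.76), 0.10 for KLF5 (-0.36 to 0.56) and 0.25 for KLF6 (-0.14 to 0.63). Without siRNA 1 replicate 1 these values were 0.07, -0.19 and 0.06. With siRNA 2 they were 0.23 (-0.22 to 0.68), 0.07 (-0.39 to 0.52) and -0.16 (-0.54 to 0.22). KLF6 was the only gene of the 3 whose interval between the PVRL4 siRNAs lay on 1 side of 0, at -0.41 (-0.79 to -0.03). That value did not pass without the block (limma adjusted p = 0.296, edgeR 0.292) and passed with it (adjusted p = 0.0294 in limma and 0.0346 in edgeR), where 9.33% of all genes passed in limma. Without siRNA 1 replicate 1 it was -0.22. In siRNA 1 replicate 1 the interferon gene sum was 6054 RPM and KLF4, KLF5, KLF6 and KLF10 were each at their highest of the 9 libraries. The part of the interferon genes in these levels was not tested.

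**Figure D2:**
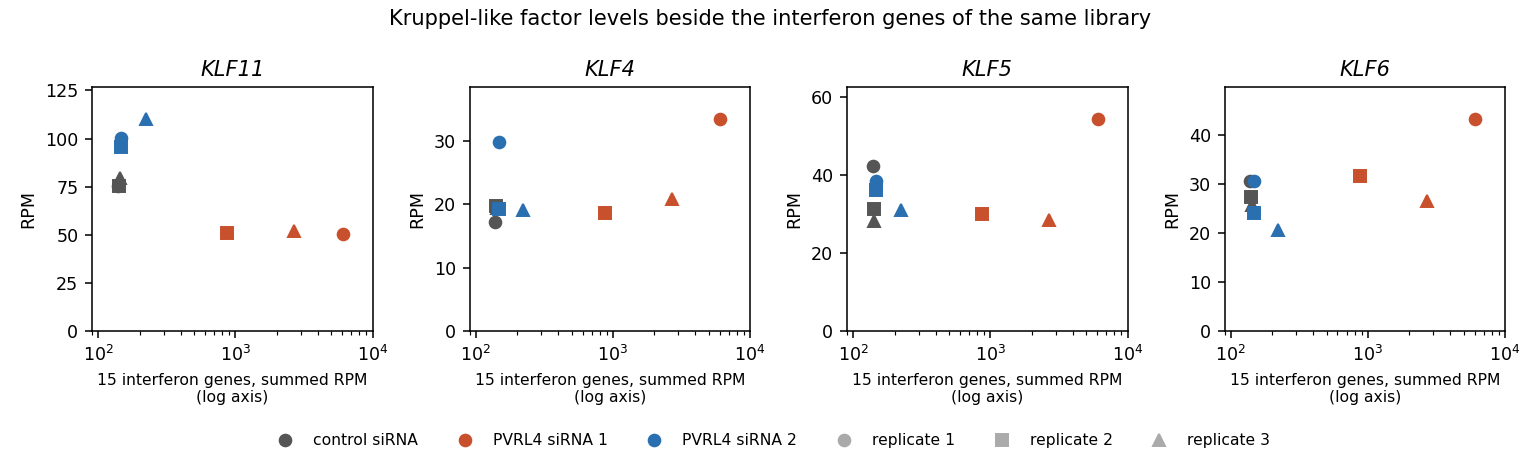
RPM of KLF11, KLF4, KLF5 and KLF6 (y axes from 0) against the summed RPM of 15 interferon-induced genes (log axis) in each of the 9 libraries, with colour for the siRNA and marker shape for the replicate number. In the siRNA 1 libraries KLF11 is at 50.3 to 52.2 RPM and the sum at 875 to 6054 RPM, and the other genes are highest in the library with the sum of 6054 RPM.

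Without the block, the 9 genes other than KLF11 gave 0 calls in any comparison of the siRNA groups in limma, edgeR or DESeq2. With the block, KLF6 was called between the PVRL4 siRNAs (limma adjusted p = 0.0294), where 9.33% of all genes were called. At an unadjusted p under 0.05, limma without the block counted 0 of the 9 genes for siRNA 1 against control and 0 for siRNA 2 against control. It counted 1 for siRNA 2 against siRNA 1, and that gene was KLF6. Over all genes the shares at that level were 6.04%, 9.42% and 15.1%. Their log2 changes ran from -0.27 to 0.31, from -0.25 to 0.23 and from -0.41 to 0.17. The median over all 10 genes was 0.04, 0.02 and -0.01, beside medians of 0.01, -0.02 and -0.04 over all genes tested. All 3 comparisons share libraries, so they are not separate evidence. The rule for the genes may have used these comparisons, and nothing is read from their count beside the 0.851%, 0.681% and 3.05% of all genes called.

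**Figure D3:**
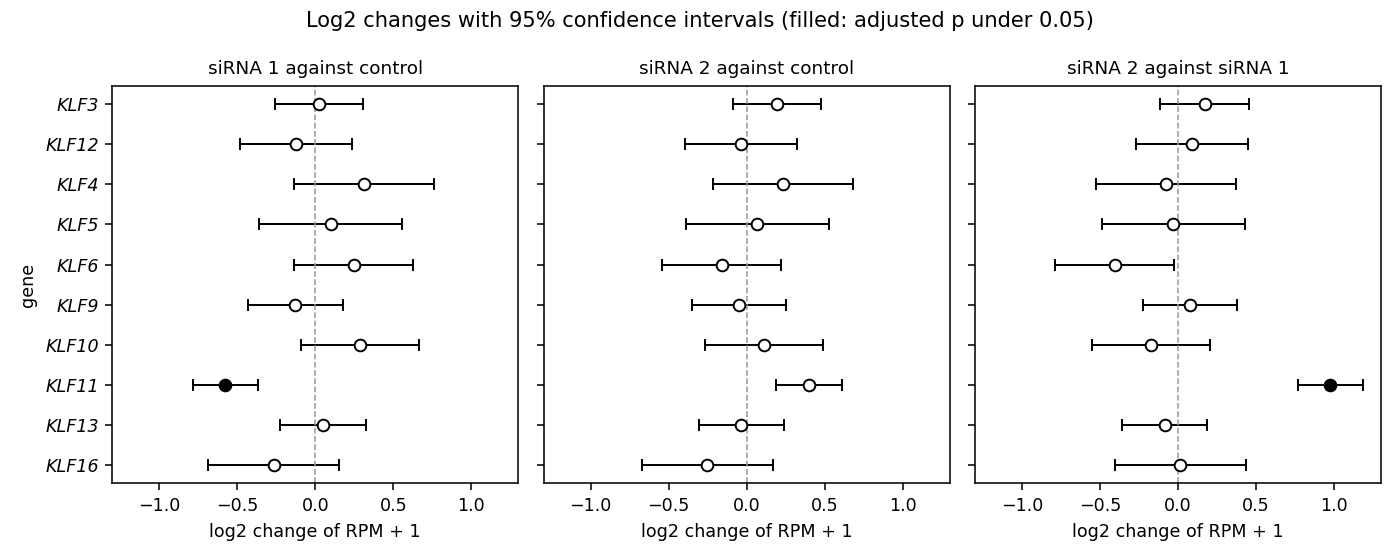
Log2 change of RPM + 1 with its 95% confidence interval from limma for the 10 KLF genes (y axis) in the 3 comparisons of siRNA groups. Filled points passed an adjusted p of 0.05, which KLF11 did for siRNA 1 against control (-0.58) and for siRNA 2 against siRNA 1 (0.98). KLF11 is also the only gene whose interval for siRNA 2 against control (0.19 to 0.61) lies on 1 side of 0.

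KLF5 and KLF6 were highest in replicate 1 of all 3 groups, as were 11.2% of all genes tested, and KLF3 and KLF11 were highest in replicate 3 of all 3 groups, as were 6.21%. A comparison of replicate 3 with replicate 1 in a fit of group and replicate number was added after these values had been seen, so its adjusted p values support nothing further. The log2 change was 0.31 for KLF3 (adjusted p = 0.0470), -0.59 for KLF5 (adjusted p = 0.0115), -0.49 for KLF6 (adjusted p = 0.0153) and -0.37 for KLF4 (adjusted p = 0.157). Over all genes, 8.93% were called. For KLF11 the value was 0.09 (95% confidence interval -0.09 to 0.27). The calls rested on siRNA 1 replicates 1 and 3: without either library none of the 10 genes passed, with adjusted p of 0.0690 and 0.0708 for KLF5 and of 0.0793 and 0.0883 for KLF6. KLF6 was also lost without siRNA 2 replicate 1 (adjusted p = 0.0723). KLF3 was lost in 7 of 9 fits that left out 1 library, kept only without control replicates 1 or 2, with adjusted p of 0.0566 to 0.198 where it was lost. KLF4 was called without control replicate 1 (log2 change -0.65, adjusted p = 0.0183), and its value was -0.20 without siRNA 1 replicate 1. What the replicate number stands for was not given in the labels.

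Within groups, some pairs of KLF genes moved together and others in opposite directions. Deviations of log2(RPM + 1) from the group mean had a Pearson correlation over the 9 libraries of 0.876 for KLF5 with KLF6, 0.793 for KLF4 with KLF6 and 0.751 for KLF3 with KLF12. They ran the other way for KLF3 with KLF6 (-0.902), KLF4 with KLF12 (-0.844) and KLF10 with KLF11 (-0.796). These are the ends of 45 pairs, given as a description, and the points share the replicate numbers just described.

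**Figure D4:**
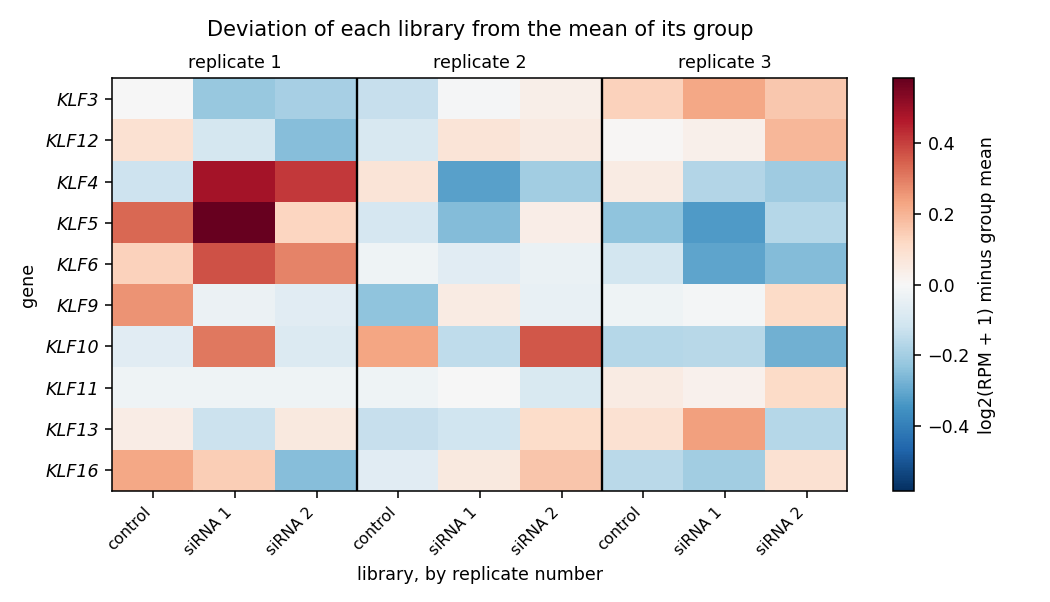
Deviation of log2(RPM + 1) from the mean of the group (colour, red above and blue below) for the 10 KLF genes in the 9 libraries, ordered by replicate number. KLF5 and KLF6 are above their group mean in all replicate 1 libraries and KLF3 in all replicate 3 libraries, and the KLF11 row stays between -0.09 and 0.11.

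By likeness over the 9 libraries (Pearson correlation of log2(RPM + 1), over 7925 genes averaging 10 RPM or more), KLF11 was most like MRPL47, a mitochondrial ribosome protein (0.956), CD2AP, an adaptor of the actin cytoskeleton (0.949), and REEP3, an endoplasmic reticulum protein (0.942). MRPL47 had means of 116 RPM in control, 89.2 RPM with siRNA 1 and 127 RPM with siRNA 2, the order that KLF11 has. KLF3 was most like CEP57L1 (0.976), the ribosomal protein gene RPL29 (0.972) and the COP9 signalosome gene COPS8 (0.950). KLF13 was most like the autophagy gene ATG2A (0.938), RPAP1 (0.935) and prothymosin alpha, PTMA (0.894). The 3 highest of 7925 correlations are high by selection, and they are given as a description.

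Of the partners of KLF proteins, all 15 corepressor genes were tested, and 1 was called, CTBP1, which encodes the corepressor bound by KLF3, KLF8 and KLF12. CTBP1 held 65.3, 58.3 and 75.5 RPM in the control libraries, 49.0, 58.8 and 59.1 RPM with siRNA 1 and 72.2, 91.1 and 79.9 RPM with siRNA 2. It was higher with siRNA 2 than with siRNA 1 by 0.53 on the log2 scale (limma adjusted p = 0.0376). That is 1 of 15 genes where 3.05% of all genes were called. No CTBP1 library overlapped between the PVRL4 siRNAs, a separation that 7.04% of all genes had in that direction. The CTBP1 call was lost in 6 of 9 fits that left out 1 library (adjusted p of 0.0576 to 0.154). It was kept without control replicates 2 or 3 or siRNA 2 replicate 1. Of all 22 alternatives run, 13 kept the call. At an unadjusted p under 0.05 limma counted 0 of the 15 for siRNA 1 against control, beside 6.04% of all genes. It counted 5 for siRNA 2 against control and 5 for siRNA 2 against siRNA 1, beside 9.42% and 15.1% of all genes. The list was chosen with earlier results of these data known. SIN3A, the corepressor of the KLF11 group, was at 70.7 ± 2.36, 70.6 ± 7.01 and 57.7 ± 4.92 RPM in control, siRNA 1 and siRNA 2 libraries (SD, n = 3 each), with an adjusted p of 0.372 for siRNA 2 against control. With the replicate block, under which 9.33% of all genes were called between the PVRL4 siRNAs and 3.41% for siRNA 2 against control, SAP30 (higher) and RCOR1 (lower) were also called between the PVRL4 siRNAs, and RCOR1 was lower with siRNA 2 than in control, at 55.7 ± 10.6 against 76.6 ± 6.23 RPM (SD, n = 3 each). None of the 9 coactivator genes was called in limma, edgeR or DESeq2 (3, 1 and 1 at an unadjusted p under 0.05 for siRNA 1 against control, siRNA 2 against control and siRNA 2 against siRNA 1, beside 6.04%, 9.42% and 15.1% of all genes), nor were any of 13 tested ubiquitin ligases and deubiquitinases of KLF proteins (0, 1 and 1). With the block, KAT2A, an acetyltransferase, was lower with siRNA 2 than with siRNA 1. Its means were 28.9, 41.3 and 28.2 RPM in control, siRNA 1 and siRNA 2 libraries.

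Genes tied to single KLF members were mostly not called. Counts below are in the order siRNA 1 against control, siRNA 2 against control and siRNA 2 against siRNA 1. Over all genes, 6.04%, 9.42% and 15.1% were at an unadjusted p under 0.05 in limma. With the block in limma, 1.85%, 3.41% and 9.33% of all genes were called. None of the 14 TGF-beta and SMAD genes listed beside KLF10 and KLF11 passed in limma or edgeR (2, 1 and 3 at an unadjusted p under 0.05), and DESeq2 called 1, lower with siRNA 1. TGFBR1, a TGF-beta receptor, was called lower than control with siRNA 1 when the block was used (limma adjusted p = 0.00829, with 1.85% of all genes called) and in DESeq2. With siRNA 2 it passed with the block in limma (adjusted p = 0.0240) but not with the block in edgeR (0.0595). It held 580, 468 and 423 RPM in the control libraries, 385, 362 and 344 RPM with siRNA 1 and 424, 357 and 369 RPM with siRNA 2. With the block, ID1 was lower with siRNA 2 than in control and than with siRNA 1. ID3 and SMAD3 were lower with siRNA 2 than with siRNA 1 when the block was used. Means in control, siRNA 1 and siRNA 2 libraries were 22.5, 33.6 and 21.2 RPM for ID3 and 28.6, 35.1 and 24.9 RPM for SMAD3. Of the glucocorticoid receptor and its targets, listed beside KLF9, 9 of 11 were tested. In limma 2 were lower with siRNA 2 than with siRNA 1, where 3.05% of all genes were called. MT2A, a metallothionein, held 671, 578 and 510 RPM in the control libraries, 1086, 806 and 661 RPM with siRNA 1 and 442, 407 and 287 RPM with siRNA 2, and fell between the siRNAs by 1.16 on the log2 scale (limma adjusted p = 0.00323). CEBPD, a leucine zipper factor, fell by 1.06 (adjusted p = 0.0285). The CEBPD call was lost without siRNA 1 replicate 1 or 3 or siRNA 2 replicate 1 or 3 (adjusted p of 0.0540 to 0.126). It was also lost in limma with no filter (adjusted p = 0.0947) and with no trend (adjusted p = 0.0631). Against control, MT2A, CEBPD and DUSP1 were higher with siRNA 1 when the block was used (adjusted p of 0.00266, 0.0157 and 0.00993), and MT2A was lower with siRNA 2 (adjusted p = 0.000435). FKBP5, a chaperone of the glucocorticoid receptor, was higher with siRNA 2 than with siRNA 1 when the block was used (log2 change 0.38, adjusted p = 0.0384), at 51.4 ± 5.79 against 39.1 ± 0.968 RPM and 43.6 ± 8.11 RPM in control (SD, n = 3 each). DUSP1, a phosphatase of MAP kinases, held 30.1, 28.3 and 22.7 RPM in control libraries. In siRNA 1 libraries it held 75.3, 40.1 and 33.6 RPM. By group mean MT2A was highest with siRNA 1 and lowest with siRNA 2, the reverse of KLF11, while KLF9 overlapped between all groups. CEBPD was at 15.9 ± 5.10 RPM with siRNA 1 (SD, n = 3). Its libraries overlapped between control (7.77 ± 2.02 RPM) and siRNA 2 (7.04 ± 2.07 RPM). Of 14 tested clock genes listed beside KLF9 and KLF10, none passed in limma or edgeR (1, 1 and 3 at an unadjusted p under 0.05). DESeq2 called NR1D2, and with the block NR1D2 was higher with siRNA 2 than with siRNA 1, and BHLHE40 lower. BHLHE40 was also lower with siRNA 2 than in control with the block. Of 19 tested genes described as targets of KLF4, KLF5 or KLF6, none passed in limma or edgeR (2, 3 and 2). With the block and in DESeq2 FASN, a fatty acid synthase described under KLF5 and SP control, was lower with siRNA 2 (819 to 1026 RPM by library) than in control (1087 to 1376 RPM) and with siRNA 1 (1141 to 1289 RPM).

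Of the relatives outside the 10, KLF2, KLF7 and KLF8 passed the filter of 1 RPM. KLF7 was at 26.7 ± 2.05, 25.8 ± 4.11 and 25.3 ± 2.85 RPM in control, siRNA 1 and siRNA 2 libraries, KLF8 at 5.92 ± 1.10, 5.03 ± 0.519 and 4.80 ± 0.460 RPM, and KLF2 at 1.19 ± 0.126, 1.73 ± 0.624 and 1.01 ± 0.296 RPM (SD, n = 3 each). KLF1, KLF14 and KLF17 had 0 reads in every library, which at 3 reads allows a level of up to 0.280 to 0.299 RPM, and KLF15 had at most 4 reads. SP1, the founding member of the neighbouring family, was at 51.1 ± 2.75, 54.1 ± 1.92 and 44.1 ± 3.82 RPM, and SP2, SP3 and SP4 were also tested. None of these 3 KLF and 4 SP genes was called in limma, edgeR or DESeq2, and at an unadjusted p under 0.05 limma counted SP1 alone, for siRNA 2 against siRNA 1 (log2 change -0.29, adjusted p = 0.193). KLF amplicons were taken at their symbols, and reads from a closely related or overlapping transcript that an amplicon also matches cannot be told apart from the gene.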

How the data were processed

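RNA of 9 SKBR3 libraries was read with an Ion AmpliSeq transcriptome kit from 100 ng of total RNA, per the labels' protocols, which amplifies a short stretch of each gene. The authors deposited RPM values, which scale reads to library totals, for 20812 genes. Per the submitters' processing notes the build was hg19. The aligner and counter are not given in the sources used here. All values (100%) were whole multiples of 1 read within 0.1 read, so read numbers were recovered, for totals of 10017130 to 10707777 reads. Groups and replicate numbers came from the sample titles.

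Values were compared as log2(RPM + 1), a scale that understates changes of genes near 1 RPM. limma 3.58.1 (R 4.3.3) was fitted with a trend in its prior variance to the 11158 genes averaging 1 RPM or more, all of the 10 KLF genes among them. The 3 groups shared 1 estimate of the spread. Two-sided p-values were adjusted over all genes tested (Benjamini-Hochberg) at a threshold of 0.05, and an adjusted p with no tool named is limma's. edgeR 4.0.16 (quasi-likelihood test) and DESeq2 1.42.0 were run on the recovered reads as alternatives. The fits were tested on simulated data for siRNA 1 against control (11150 genes), where limma recovered 56% of 100 genes changed by 0.5 on the log2 scale and 100% of 100 changed by 1. The simulation gave all genes the same spread beyond counting error, had no replicate effect and changed only genes averaging 10 RPM or more. These shares therefore do not give the power in the real libraries. There PVRL4, at a log2 change of -0.84 with siRNA 1, missed the threshold (limma adjusted p = 0.0601). Replicate numbers pair the samples: libraries of different groups with the same number in their titles deviated together (correlation 0.252 to 0.417, 9 pairs), and the other 18 pairs did not (-0.340 to -0.0275). Deviations from a group mean cancel out within the group. Negative values in the 18 pairs therefore follow largely from the positive ones and are not separate support.

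All 10 genes are described. Of lists of KLF and SP relatives, corepressors, coactivators, ubiquitin enzymes, SMAD, glucocorticoid and clock genes and targets of KLF4, KLF5 or KLF6, counts are given, with up to 3 members of smallest p a comparison. GRHL1, CYS1, RRM2, TFAP2A, CCL5, SIN3A, the 15 interferon genes, and BHLHE40 were named outside that rule, after values had been seen. The members and lists were chosen with earlier results of these data known. Genes most alike were taken for the 3 members with the highest mean.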

Additional observations from a re-analysis of the deposited data

Results flagged for a closer look

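KLF11 was flagged because the difference between the PVRL4 siRNAs, which share a target, passed its own test. Their values also lay on opposite sides of control, which was not part of the rule for the flag. The log2 change from siRNA 1 to siRNA 2 was 0.98 (limma adjusted p = 0.000214), higher in 3 of 3 siRNA 2 libraries than in any siRNA 1 library. Over all genes tested, 3.05% were called in that comparison and 7.04% were separated in that direction. KLF11 was picked with earlier results of the data known. Against control the log2 change was -0.58 with siRNA 1 and 0.40 with siRNA 2. The siRNA 2 value missed the threshold in limma (adjusted p = 0.0962) and in edgeR without the block (adjusted p = 0.105). It passed with the replicate number as a block in limma (adjusted p = 0.0141) and in DESeq2 (adjusted p = 0.0181). PVRL4 itself was lower than control in all 6 PVRL4 siRNA libraries. The supplier and the target are shared by the PVRL4 siRNAs, and their sequences were not used here.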

How the results depend on the processing

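KLF11 kept its direction under all alternatives run. Its log2 change between the PVRL4 siRNAs passed under each, and leaving out 1 library gave 0.92 to 1.02. The number of the 10 KLF genes called for siRNA 1 against control was 1, and 0 to 1 when 1 library was left out. For siRNA 2 against control it was 0, and 1 with the replicate block in limma, with the block in edgeR and in DESeq2. Between the PVRL4 siRNAs it was 1, and 2 with the replicate block in limma or edgeR. For replicate 3 against replicate 1 it was 3, 1 with no filter, 0 with no trend, and 0 to 4 when 1 library was left out. The block changed no other call of a KLF gene.

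Counts over all genes depended more on the settings. For siRNA 1 against control 95 genes were called, 57 with no filter, 49 with no trend, 206 with the replicate block in limma, 219 with the block in edgeR, 161 in DESeq2, and 46 to 137 with 1 library left out. For siRNA 2 against control the numbers were 76, 29, 17, 380, 320, 159, and 18 to 70. Between the PVRL4 siRNAs they were 340, 197, 192, 1041, 1015, 523, and 153 to 306, with 212 in a fit of the 6 libraries compared. For replicate 3 against replicate 1 they were 996, 367 with no filter and 258 with no trend, and 276 to 913 with 1 library left out. No filter means more genes tested, and a left-out library means fewer samples. For the other settings the cause was not tested.

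Of the 657 alternative values of the 10 KLF genes in the 3 siRNA comparisons, 32 changed sign, all where the log2 change was at most 0.13 in size. With siRNA 1 against control, leaving out 1 library gave -0.087 to 0.13 for KLF3, -0.19 to 0.27 for KLF5, -0.24 to 0.0035 for KLF9 and -0.069 to 0.11 for KLF13. With siRNA 2 it gave -0.13 to 0.088 for KLF12, -0.052 to 0.23 for KLF5, -0.17 to 0.081 for KLF9, -0.068 to 0.25 for KLF10 and -0.10 to 0.048 for KLF13. Between the PVRL4 siRNAs it gave -0.0095 to 0.21 for KLF12, -0.29 to 0.16 for KLF4, -0.20 to 0.26 for KLF5, -0.15 to 0.034 for KLF13 and -0.088 to 0.14 for KLF16. For KLF12 with siRNA 2, quantile normalization gave 0.024, edgeR 0.0013 and DESeq2 0.0043, and for KLF9 quantile normalization gave 0.00073. Between the siRNAs, quantile normalization gave 0.0033 for KLF4 and 0.030 for KLF5, where median-of-ratios scaling gave 0.013 and TMM scaling 0.0029. Without 1 library an arm of 2 is assumed to vary like the others. KLF16, at 29 to 57 reads, has the fewest reads of the 10 genes.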
